A study of Mus musculus with 6 samples.

Results

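The genes examined were the FoxA, FoxO and FoxP forkhead transcription factors of mouse islet β cells. They were taken by symbol from the deposited expression matrix, which gave 9 genes of 24421 rows, with 3 in each subfamily: Foxa1, Foxa2 and Foxa3; Foxo1, Foxo3 and Foxo4; Foxp1, Foxp2 and Foxp4. RNA-seq was done on β cells sorted for tdTomato fluorescence from mice aged 7 weeks, with 3 control and 3 βDKO libraries. All animals were on a mixed C57BL/6J and 129SV background, received tamoxifen, and carried the MIP-CreERT transgene together with a Cre-activated tdTomato reporter at the R26 locus. Control mice were Brg1f/+ and Brm+/-, so they had a single intact Brm allele and a floxed copy of Brg1. βDKO mice were Brg1f/f and Brm-/-. Brg1 (gene Smarca4) and Brm (gene Smarca2) encode the catalytic subunit of Swi/Snf, a chromatin remodeller that holds either of them, and the series asks which transcripts of β cells depend on that complex. MIP-CreERT is driven by a mouse insulin promoter and active on tamoxifen, so the sort selects cells in which Cre acted on the reporter; that transgene includes growth hormone sequence, and both groups have it. The labels do not say whether a library came from 1 animal or from a pool, and p-values therefore measure only the spread between these samples.

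Forkhead factors share a winged-helix DNA-binding domain. The FoxA proteins are pioneer factors that bind nucleosomal DNA and open enhancers, and in the mouse pancreas Foxa1 and Foxa2 act upstream of Pdx1, the factor that specifies pancreas and maintains β cells. The FoxO proteins are the nuclear end of insulin signalling: Akt phosphorylates them, which drives them out of the nucleus, and mice lacking FoxO factors in β cells show loss of β-cell identity under metabolic stress. The FoxP proteins act largely as repressors that dimerise, and in mouse islets they are needed for the growth and function of α cells.

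The values are TPM, a transcript level normalised for gene length and library total. Ins1 and Ins2 together made up 42.6% to 48.3% of TPM in controls and 6.37% to 8.93% in βDKO, so that other transcripts take up a larger part of the βDKO total. Among 12541 tested genes, the median log2 fold change was 0.80 on TPM. A second scale, called rescaled here, divides the TPM of each library by a median-of-ratios size factor and sets the typical gene near no change (median 0.03). The words rose and fell are kept for genes that passed on both scales (limma on log2 of value + 1, Benjamini-Hochberg adjusted p under 0.05); otherwise the scale is named. Smarca4, checked first as a targeted gene, was at 8.997, 13.5 and 12.4 TPM in controls and 10.6, 10.5 and 11.4 TPM in βDKO. Smarca2 was at 22.7 ± 7.503 and 23.6 ± 1.33 TPM (SD, n = 3). Neither passed on TPM (limma adjusted p = 0.674 and 0.693), while both were lower on the rescaled values, by −0.86 and −0.71 on the log2 scale (adjusted p = 7.03e-04 and 0.0117). Both values cover whole genes, including exons outside a deletion, and so check the labels only in part. The most alike libraries of a group were βDKO 1 and βDKO 2, with an SD of 0.22 for their log2 differences against 0.34 to 0.54 for other pairs within a group.

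The forkhead domain is the part of these genes that paralogs share most, so the coding bases of its recognition helix, the helix that enters the DNA major groove, are shown to make clear what tells the transcripts apart. For the FoxA and FoxO genes, each line gives 60 coding bases from the start of that helix in the GENCODE M21 transcript, 5′ to 3′, and capitals mark bases that differ from the first member of the same subfamily.
Foxa1: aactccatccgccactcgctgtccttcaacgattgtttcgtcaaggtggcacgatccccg
Foxa2: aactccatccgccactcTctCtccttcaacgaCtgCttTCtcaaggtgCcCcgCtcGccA
Foxa3: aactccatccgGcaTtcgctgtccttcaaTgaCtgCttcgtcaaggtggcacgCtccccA
Foxo1: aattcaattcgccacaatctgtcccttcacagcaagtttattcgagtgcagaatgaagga
Foxo3: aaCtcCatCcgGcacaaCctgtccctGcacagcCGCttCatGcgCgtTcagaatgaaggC
Foxo4: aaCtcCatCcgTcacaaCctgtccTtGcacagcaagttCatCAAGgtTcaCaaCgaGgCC
Among the pairs shown within a subfamily, Foxa1 and Foxa3 were the closest, with 7 differing bases, and Foxo1 and Foxo4 the most distant, with 18. No 50-base word of any member's transcripts occurred in another member. Exons of Foxo1 overlap a transcript on the opposite strand over 674 of 8665 exonic bases, those of Foxp1 overlap other transcripts of its own strand over 435 of 13751 bases, and the other members share no exonic base with another gene in that annotation.

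Foxa2 was the most abundant of the 9 transcripts by mean TPM in both groups, and Foxa1 was nearly undetected. In controls the order of mean TPM was Foxa2, Foxo1, Foxo3, Foxp4, Foxo4, Foxa3, Foxp1, Foxp2 and Foxa1, and the libraries of neighbours overlapped from Foxa2 down to Foxp4 and between Foxo4 and Foxa3. In βDKO the order was Foxa2, Foxo1, Foxo3, Foxo4, Foxp4, Foxp1, Foxa3, Foxp2 and Foxa1. There, Foxo1 overlapped with Foxo3 and Foxp1 with Foxa3, and no other neighbours overlapped. Of the 9 genes, 8 reached 1 TPM in at least 3 libraries and were tested. Foxp2 did so through its βDKO values alone, so its calls carry no weight, though the counts of higher members below include it. Without Foxp2, which a filter of 5 TPM leaves untested, 5 of 7 members were higher on TPM and 3 after rescaling. On TPM, 6 were higher and 1 lower in βDKO, where 76.0% of all tested genes were higher and 6.04% lower, so the number of higher members was near the background; 82.1% passed in either direction. After rescaling, 4 were higher and 2 lower, where 22.4% of all tested genes were higher and 21.2% lower, 43.6% in all. The libraries of the groups did not overlap for the same 6 higher and 1 lower genes on TPM, where 78.2% of tested genes lay wholly higher and 6.29% wholly lower, nor for the same 4 and 2 genes after rescaling, where these shares were 30.5% and 27.2%.

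**Figure D1:**
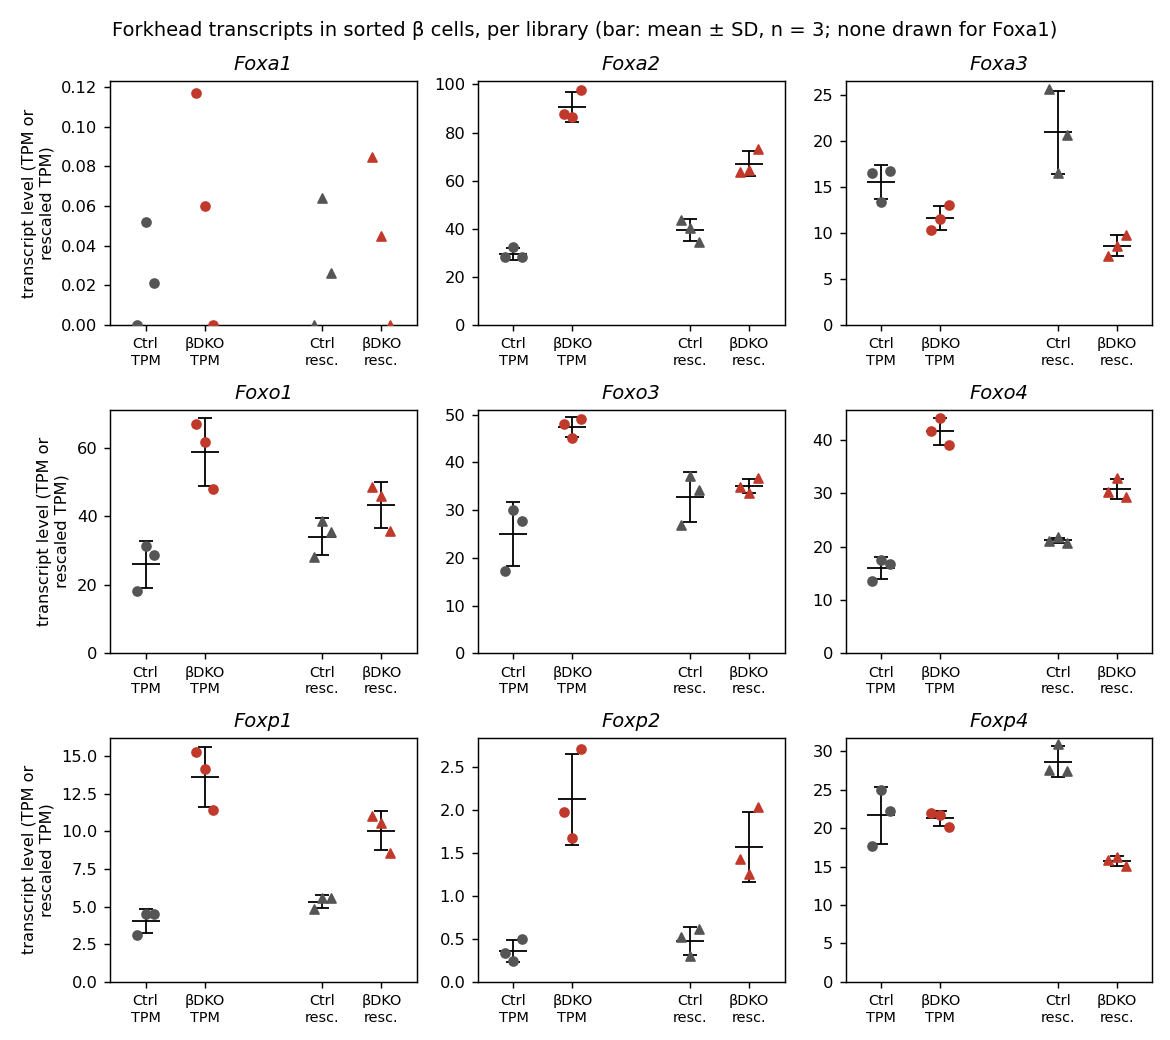
Level of each of the 9 forkhead transcripts in each library, as deposited TPM (circles) and rescaled TPM (triangles), in control (grey) and βDKO (red); bars show mean ± SD (n = 3), with none drawn for Foxa1. Foxa2 lies at 28.0 to 32.5 TPM in controls and at 86.3 to 97.9 TPM in βDKO, while Foxp4 overlaps on TPM and separates after rescaling.

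The FoxA subfamily moved in opposite directions. Foxa2 (chromosome 2, 148042877 to 148046969, mm10), a pioneer factor needed for normal insulin secretion in mice, was at 28.0, 32.5 and 28.0 TPM in the controls. The βDKO libraries stood at 87.9, 86.3 and 97.9 TPM. Every βDKO library lay above every control. Foxa2 rose by a factor of 3.07 in mean TPM, a log2 difference of 1.59 (SE 0.11, limma adjusted p = 1.94e-05), and by 0.75 (SE 0.11, adjusted p = 0.00140) on the rescaled values. On that scale its log2 change exceeded that of 88.5% of tested genes.

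Foxa3 (chromosome 7, 19013284 to 19023538), a FoxA paralog best known as a regulator of metabolic genes in liver, was at 16.5, 13.4 and 16.7 TPM in controls and at 10.4, 11.5 and 13.0 TPM in βDKO. The groups did not overlap, but control 2 and βDKO 3 lay close together. Foxa3 fell: the log2 difference from control was −0.39 on the TPM scale (SE 0.15, limma adjusted p = 0.0413), and the rescaled one was −1.18 (SE 0.17, adjusted p = 0.00131). The TPM difference no longer passed without control 1 (limma adjusted p = 0.0573), control 3 (0.106), βDKO 1 (0.164) or βDKO 2 (0.115), with βDKO 1 and βDKO 2 averaged (0.134), without a filter (0.0519) and with the replicate number as a block (0.0748). After rescaling it passed under every alternative run, with adjusted p from 9.91e-04 to 0.00679. Only 6.37% of tested genes had a lower rescaled log2 change.

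Foxa1 (chromosome 12, 57540628 to 57546916), which overlaps with Foxa2 in function during mouse pancreas development, did not reach the filter. It was at 0, 0.0519 and 0.0212 TPM in controls and at 0.117, 0.0602 and 0 TPM in βDKO. These stand for 0, 2 and 1 reads in controls and 4, 2 and 0 in βDKO, as recovered from the TPM steps, and the groups overlapped. With such counts a difference between groups was not detectable at this depth. Foxa2 had 2489 to 2972 reads in controls and 5702 to 6375 in βDKO.

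The 3 FoxO genes examined were higher on TPM, and of these Foxo4 alone rose on both scales. Foxo1 (chromosome 3, 52268336 to 52353221), the FoxO factor most studied in β cells, was at 18.1, 31.2 and 28.6 TPM in controls and at 66.9, 61.8 and 47.9 TPM in βDKO. Control 1 was the lowest and βDKO 3 the lowest of its group, and the groups did not overlap on TPM. On that scale the log2 difference was 1.17 (SE 0.22, limma adjusted p = 0.00160). The antisense transcript named above cannot be told apart from Foxo1 over the shared bases, as the use of strand in counting is not given. After rescaling, the libraries stood at 28.1, 38.7 and 35.4 in controls and 48.4, 46.1 and 35.8 in βDKO. Here βDKO 3 lay within the control range, and the log2 change of 0.34 (SE 0.16) missed the threshold (adjusted p = 0.112). Without βDKO 3 it was 0.48 and passed (adjusted p = 0.0470, within a range of 0.0470 to 0.306 over all alternatives). That library also had the highest summed β-cell markers of its group, 96568 TPM against 68240 and 69858, and its part in the result was not tested.

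Foxo3 (chromosome 10, 42181841 to 42276755), a FoxO paralog linked to stress resistance and cell survival, was at 17.3, 30.0 and 27.7 TPM in controls and at 48.0, 45.1 and 49.1 TPM in βDKO. On that scale the log2 difference was 0.93 (SE 0.20, limma adjusted p = 0.00298), near the median of all tested genes. After rescaling the groups overlapped and the change was 0.11 (SE 0.13, adjusted p = 0.527).

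Foxo4 (chromosome X, 101254528 to 101260873), the third insulin-regulated FoxO factor examined, was at 13.6, 17.5 and 16.7 TPM in controls and at 41.7, 44.2 and 39.1 TPM in βDKO. Its rescaled controls were the tightest of the subfamily, at 21.1, 21.7 and 20.7, against 30.2, 33.0 and 29.2 in βDKO. Foxo4 rose: its log2 difference in TPM was 1.34 (SE 0.14, limma adjusted p = 9.67e-05). The rescaled one was 0.52 (SE 0.09, limma adjusted p = 0.00276).

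The FoxP genes split as well: Foxp1 rose, while Foxp4 did not pass on TPM and was lower after rescaling. Foxp2 was higher in every βDKO library than in any control, at low levels. Foxp1 (chromosome 6, 98925338 to 99522721), a repressor known for its part in B-cell and lung development, was at 3.10, 4.48 and 4.53 TPM in controls and at 15.3, 14.1 and 11.4 TPM in βDKO. No libraries overlapped on either scale. Foxp1 rose by a factor of 3.37 in mean TPM, a log2 difference of 1.54 (SE 0.18, limma adjusted p = 1.88e-04), and by 0.80 (SE 0.13, adjusted p = 0.00239) after rescaling.

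Foxp2 (chromosome 6, 14901349 to 15441977), a repressor known for its part in neural circuits of speech and vocal learning, was at 0.334, 0.241 and 0.492 TPM in controls and at 1.97, 1.67 and 2.71 TPM in βDKO. It had 57 to 142 recovered reads in controls and 341 to 544 in βDKO. Every βDKO library was above every control, and βDKO 3 was the highest. The log2 difference of Foxp2 in TPM was 1.19 (SE 0.18, limma adjusted p = 6.18e-04), and the rescaled one was 0.79 (SE 0.18, adjusted p = 0.0108). Foxp2 entered this test only through the group where it is high, so these calls carry no weight. With no filter on low values the limma adjusted p was 0.00128 and, rescaled, 0.0129. The added 1 TPM compresses so low a gene: the ratio of mean TPM was 5.96, and limma-voom on the recovered reads gave log2 changes of 2.58 and 1.72. Without any 1 of the βDKO libraries it did not reach the filter and was not tested.

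Foxp4 (chromosome 17, 47867133 to 47924645), a FoxP paralog expressed in lung, gut and brain, was at 17.7, 25.0 and 22.2 TPM in controls and at 21.9, 21.8 and 20.1 TPM in βDKO. On that scale the log2 difference was −0.01 (SE 0.15, limma adjusted p = 0.940), where most other genes were higher. After rescaling the libraries stood at 27.6, 31.0 and 27.5 in controls and at 15.9, 16.3 and 15.04 in βDKO, with no overlap. On that scale Foxp4 was lower by −0.83 on the log2 scale (SE 0.09, adjusted p = 4.31e-04), and 9.91% of tested genes had a lower change.

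**Figure D2:**
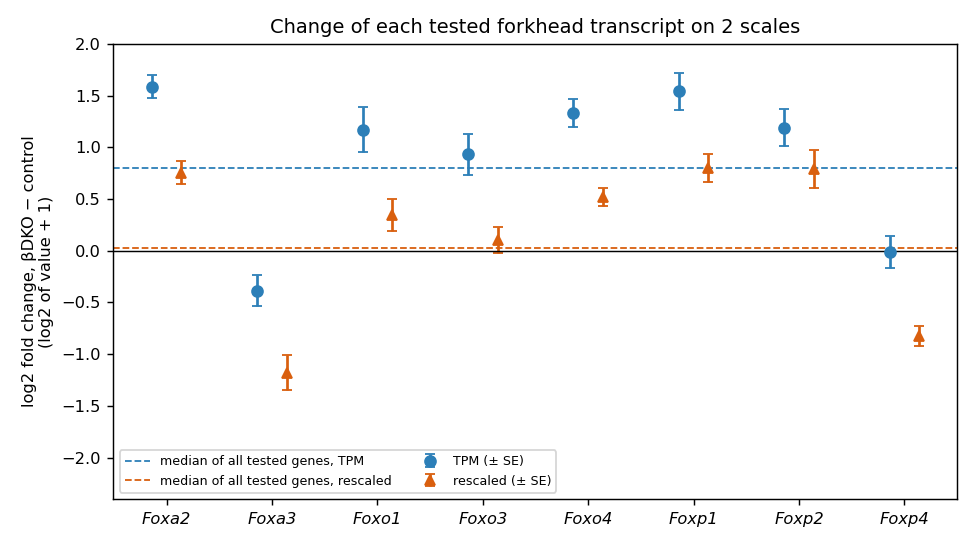
Log2 fold change (βDKO minus control, log2 of value + 1) with its SE for the 8 tested forkhead genes, on TPM (circles) and after rescaling (triangles); dashed lines mark the median of all 12541 tested genes on each scale. Foxa3 lies at −0.39 and −1.18 and Foxp4 at −0.01 and −0.83, while the other 6 genes lie above 0 on both scales, with Foxo1 and Foxo3 at 0.34 and 0.11 after rescaling.

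Ratios between paralogs within a library do not depend on how the library is scaled, and they separated the groups most clearly in FoxA and FoxP. The log2 ratio of Foxa2 to Foxa3 was 0.77, 1.28 and 0.74 in controls and 3.08, 2.91 and 2.91 in βDKO, which corresponds to mean ratios of 1.91 and 7.83. The difference was 2.04 (SE 0.18, exact two-sided permutation p = 0.1, adjusted 0.14 over 7 pairs). With 3 against 3 samples, 0.1 is the smallest p this test allows, so no pair could pass. The log2 ratio of Foxp1 to Foxp4 was −2.52, −2.48 and −2.30 in controls and −0.52, −0.62 and −0.81 in βDKO, a difference of 1.78 (SE 0.11, exact p = 0.1). That of Foxp2 to Foxp4 differed by 2.62 (SE 0.44, exact p = 0.1), with all βDKO libraries above the controls. With 1 TPM added to each gene the difference was 1.20. Foxp2 is low and reached the filter through βDKO alone, so its ratio to Foxp4 carries no weight.

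Among the FoxO paralogs the differences were smaller. The log2 ratio of Foxo3 to Foxo4 was 0.35, 0.77 and 0.73 in controls and 0.20, 0.03 and 0.33 in βDKO, which differ by −0.43 (SE 0.16, exact permutation p = 0.1) with no overlap. The ratios of Foxo1 to Foxo3 (difference 0.24, SE 0.17, exact p = 0.4) and of Foxo1 to Foxo4 (−0.19, SE 0.17, exact p = 0.3) overlapped. Without a single library the first ran from 0.15 (without βDKO 1) to 0.41 (without βDKO 3) and the second from −0.09 (without βDKO 3) to −0.32 (without control 1), and the second was −0.11 without control 2 and −0.28 without βDKO 1. Foxo1 to Foxo3 was 0.06, 0.06 and 0.05 in controls, against 0.48, 0.45 and −0.04 in βDKO, so βDKO 3 stood apart from the other βDKO libraries. The ratio of Foxp1 to Foxp2 differed by −0.84 (SE 0.46, exact p = 0.1) but by 0.35 with 1 TPM added to each gene, and by −0.51 without control 2 or −0.53 without βDKO 3, and so gives no direction.

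The makeup of the subfamilies followed from this. Foxa2 made up 63.0%, 70.7% and 62.6% of summed FoxA TPM in controls and 89.3%, 88.2% and 88.3% in βDKO. Foxp4 held 83.2% ± 1.38 of the FoxP total in controls and 57.6% ± 1.38 (SD, n = 3) in βDKO, while Foxp1 held 15.4% ± 1.04 and 36.6% ± 2.91. In the sum of Foxo1, Foxo3 and Foxo4, which leaves out Foxo6, Foxo1 held 38.6% ± 1.46 and 39.6% ± 3.92. Summed TPM was 45.1 ± 0.735 against 102.4 ± 7.38 for FoxA, 66.9 ± 15.8 against 147.9 ± 10.7 for these 3 FoxO genes and 26.1 ± 4.41 against 37.0 ± 2.52 for FoxP (SD, n = 3). After rescaling, the FoxA sum was 60.5 ± 7.64 in controls and 75.7 ± 6.33 in βDKO, and that of the 3 FoxO genes 88.0 ± 10.8 and 109.3 ± 6.52, so the ratios of means were 2.27 and 2.21 on TPM and 1.25 and 1.24 here. The rescaled FoxP sum was 34.5 ± 2.06 in controls and 27.3 ± 1.51 in βDKO, the opposite order to TPM.

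**Figure D3:**
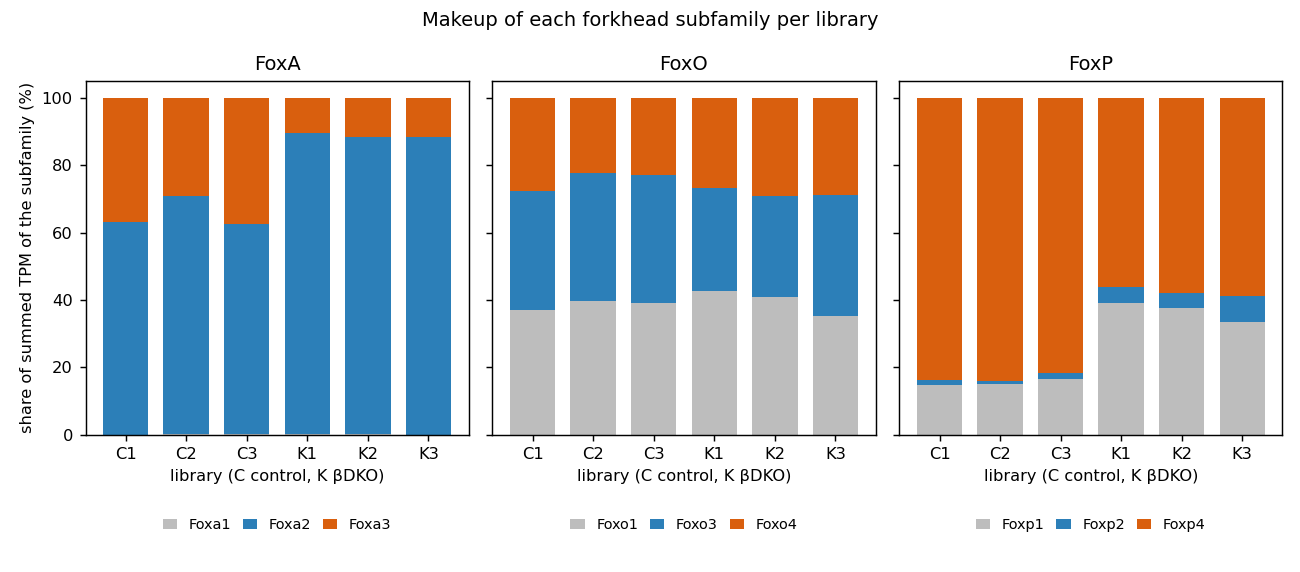
Share of each member in the summed TPM of its subfamily (percent), for controls 1 to 3 (C1 to C3) and βDKO 1 to 3 (K1 to K3). Foxa3 goes from 29.1% to 37.4% of FoxA in controls to 10.5% to 11.7% in βDKO, and Foxp1 from 14.6% to 16.6% of FoxP to 33.4% to 38.9%; Foxa1 is too low to be seen.

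**Figure D4:**
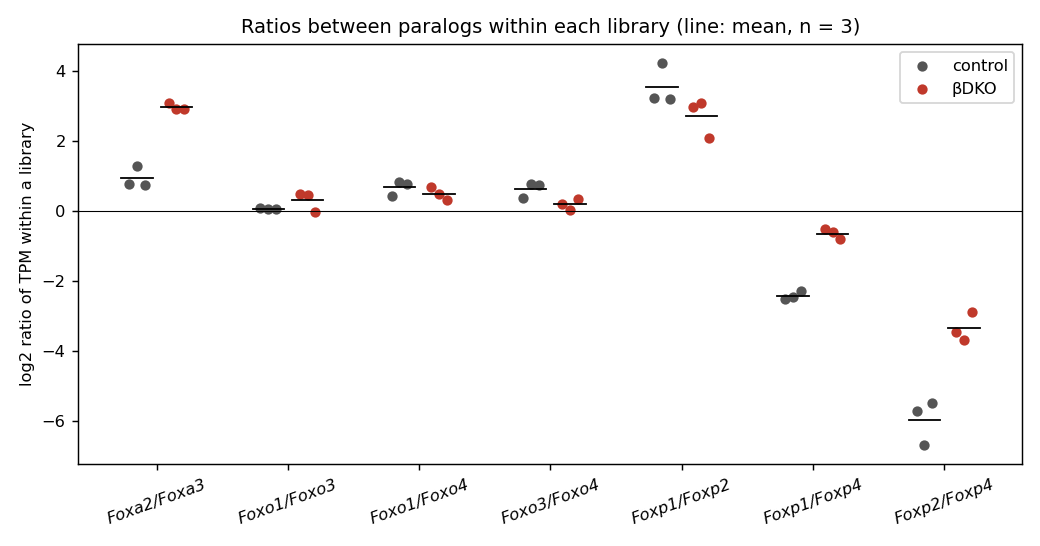
Log2 ratio of the TPM of paralogs within each library, for the 7 pairs in which neither gene is at 0, with control libraries in grey, βDKO libraries in red and lines at the means (n = 3). Foxa2/Foxa3 and Foxp1/Foxp4 separate the groups by wide margins, while Foxo1/Foxo3 and Foxo1/Foxo4 overlap. Foxp2/Foxp4 also separates, but Foxp2 is low and reached the filter through βDKO alone, so that ratio carries no weight.

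Some other genes had a pattern over the 6 libraries close to that of the leading member of each subfamily, measured by Pearson's r of rescaled log2 values over 11677 genes. For Foxa2 these were Adprh (r = 0.999) and Rpap3 (0.998); Adprh was at 83.3 ± 7.63 TPM in controls and 267.4 ± 20.8 in βDKO (SD, n = 3). For Foxo1 they were Ncoa1, a nuclear receptor coactivator (r = 0.993), Ppan (0.992) and Kdm6b, a histone H3 lysine demethylase (0.992). Kdm6b was at 35.0 ± 12.3 and 86.0 ± 16.6 TPM. For Foxp4 they were Pdcd10 (0.999), Tmem164 (0.999) and Gtpbp1 (0.999). The points of each correlation are 2 groups of 3 libraries, so a gene that differs between the groups in the member's direction can score high. In all, 544, 69 and 945 genes exceeded 0.95 for Foxa2, Foxo1 and Foxp4. Foxo1 itself did not pass after rescaling.

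Forkhead genes outside the FoxA, FoxO and FoxP members were mostly silent or close to the typical gene. Of 35 such genes in the table, 12 were at 0 in every library, 14 stayed under the filter and 9 were tested. On TPM, 7 of them were higher and 1 lower. The rescaled values had 1 higher and 2 lower, where the shares of all tested genes were 76.0% and 6.04% for TPM and 22.4% and 21.2% rescaled, and the median log2 differences were 0.90 and 0.08. Foxm1, a driver of mitotic genes, fell from 2.65 ± 0.393 to 1.66 ± 0.178 TPM (SD, n = 3; limma adjusted p = 0.0293 and, rescaled, 0.00149). Foxj1, the master factor of motile cilia, was at 0.394, 0.128 and 0.315 TPM in controls and at 1.67, 1.49 and 3.06 TPM in βDKO. It is the 1 gene counted higher after rescaling, but it reached the filter through βDKO alone, so that call carries no weight. Foxo6, a further FoxO paralog, was at 20.5 ± 3.16 and 19.3 ± 3.43 TPM and changed by −0.09 (adjusted p = 0.649) on TPM and −0.90 (adjusted p = 0.00152) after rescaling. Foxk2, Foxk1, Foxj2, Foxj3, Foxn2 and Foxn3 passed on TPM, all in the upward direction, and missed the threshold once rescaled, where their log2 changes ran from −0.22 for Foxk2 to 0.49 for Foxn3.

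Islet genes tied to FoxA factors were largely lower. Of 22 listed genes in the table, 20 were tested. On TPM, 6 of them were higher and 11 lower. The rescaled values had 2 higher and 16 lower, with median log2 changes of −1.85 and −2.68. The matching shares of all tested genes were 76.0% and 6.04% for TPM and 22.4% and 21.2% rescaled. Pdx1 was at 267, 313 and 247 TPM in controls and 340.3, 329 and 377 TPM in βDKO, and went opposite ways by scale: its log2 difference was 0.34 in TPM (limma adjusted p = 0.0171) and −0.51 rescaled (adjusted p = 0.0187). Kcnj11, a subunit of the ATP-sensitive potassium channel, fell from 69.0 ± 6.65 to 18.7 ± 1.47 TPM (SD, n = 3). Hadh, a mitochondrial β-oxidation enzyme that restrains insulin release, fell from 900.4 ± 49.1 to 246.2 ± 21.2 TPM. G6pc2, a β-cell phosphatase of glucose 6-phosphate, fell by a factor of 5.97. Mafa, an activator of insulin transcription, fell from 712.3 ± 36.8 to 22.7 ± 0.895 TPM, and Slc2a2, a glucose transporter, from 435.9 ± 104.6 to 14.8 ± 0.885 TPM. Isl1 and Neurod1, islet transcription factors, rose on both scales, by 1.61 and 1.02 on the log2 scale after rescaling. The list was put together with earlier results of these libraries known, so its direction is no independent evidence.

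Genes known as FoxO targets in various mammalian cells moved both ways. Of 23 tested, TPM gave 16 higher and 4 lower, where 76.0% of all tested genes were higher and 6.04% lower. The rescaled values gave 7 higher and 8 lower, where these shares were 22.4% and 21.2%. The medians of 0.82 and −0.03 lie near those of all tested genes. Bcl6, a repressor induced by FoxO in several cell types, rose from 1.20, 3.52 and 2.54 TPM in controls to 19.2, 14.9 and 19.6 TPM in βDKO (limma adjusted p = 7.44e-04 after rescaling). Sesn3, a stress-induced regulator of growth signalling, rose from 33.8 ± 3.74 to 122.5 ± 9.83 TPM (SD, n = 3), and Ccng2, Cited2, Fbxo32, Insr and Sesn1 also passed in that direction on both scales. Txnip, an inhibitor of thioredoxin, Cdkn1a, a cell-cycle inhibitor, and Klf2, a zinc-finger factor, fell on both. Tnfsf10, a death ligand, was at 1.79, 1.47 and 3.45 TPM in controls and 0.189, 0.427 and 0.157 TPM in βDKO; it reached the filter through the controls alone, so its call among the lower genes carries no weight. Klf2 was at 18.3, 15.2 and 6.23 TPM in controls and 1.39, 1.74 and 2.46 TPM in βDKO.

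Signalling genes upstream of FoxO and their regulators mostly stayed with the typical gene. Of 32 tested, TPM gave 26 higher and the other 6 did not pass, where 76.0% of all tested genes were higher and 6.04% lower. The rescaled values gave 5 higher and 4 lower, where these shares were 22.4% and 21.2%. The median log2 changes were 0.78 and −0.03. Irs2, an adaptor of the insulin receptor and itself a FoxO target, was at 50.5 ± 10.004 and 38.1 ± 10.6 TPM and lower only after rescaling (−1.25, limma adjusted p = 0.00241). The kinase gene Akt1 was at 89.7 ± 13.2 and 75.2 ± 1.44 TPM and lower after rescaling (−1.08, adjusted p = 1.71e-04). The deacetylase gene Sirt2 rose from 26.4 ± 1.99 to 70.9 ± 4.58 TPM, and the receptor genes Insr and Igf1r and the acetyltransferase gene Ep300 rose as well. Of 12 tested corepressor partners of FoxP, TPM gave 10 higher and the other 2 did not pass, near the 76.0% higher among all tested genes. After rescaling Mta3 was higher and Gatad2a, Mta1 and Mta2 were lower, where 22.4% of all tested genes were higher and 21.2% lower. The rescaled log2 changes ran from −0.62 to 0.34 over the list.

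**Figure D5:**
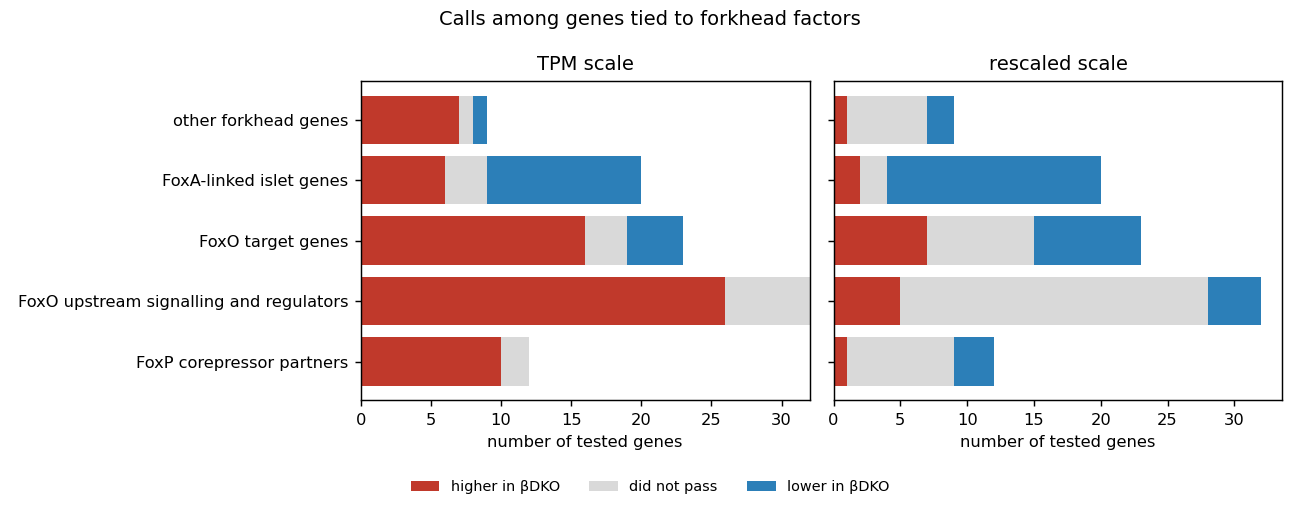
Number of tested genes of each list that were higher (red), lower (blue) or did not pass (grey) in βDKO against control, on TPM and after rescaling. The FoxA-linked islet genes hold 11 of 20 lower on TPM and 16 of 20 lower after rescaling. The FoxO and FoxP lists are mostly higher on TPM, like the whole set of 12541 tested genes, and mostly grey or mixed after rescaling. For that whole set, TPM calls cover 76.0% in the upward and 6.04% in the downward direction. Rescaled calls cover 22.4% and 21.2% of it.

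Several cell types of the islet express forkhead factors, and markers of some moved with the groups. Fewer cells of a type and less RNA per cell cannot be told apart in these libraries. The 10 β-cell markers were all measured and summed to 468571 to 535922 TPM in controls and 68240 to 96568 TPM in βDKO. Ins1 and Ins2 made up most of that sum. On TPM, 8 of the 10 were lower and 2, Pdx1 and Nkx6-1, were higher, while all 10 were lower after rescaling. Among all tested genes, 6.04% were lower and 76.0% higher on TPM, and 21.2% and 22.4% after rescaling. The 7 α-cell markers, a population that expresses FoxP and FoxA genes, summed to 2346 to 5048 TPM in controls and 551 to 844 TPM in βDKO, with 2 of them under 1 TPM in every library. The 12 immune markers summed to 119.7 to 205 TPM against 8.65 to 14.3 TPM. C1qa, a complement gene of macrophages, was the largest in controls (86.5 to 169.2 TPM) and was at 3.99 to 7.26 TPM in βDKO, with Ptprc, Cd3e and Itgam among those under 1 TPM throughout. The 10 endothelial markers summed to 5.91 to 12.3 TPM in controls and 23.98 to 28.9 TPM in βDKO through Esam, as Pecam1, Cdh5 and 6 others were under 1 TPM throughout. All 8 stellate and fibroblast markers were under 1 TPM. Acinar markers summed to 521 TPM in control 1, against 14.1 to 131 TPM in the other libraries. Ductal markers summed to 263 to 369.9 and 214 to 223 TPM, and δ- and PP-cell markers to 4111 to 9020 and 2575 to 3432 TPM. Of the 5 δ- and PP-cell markers, 1 was higher on both scales, while 3 were lower on TPM and 4 after rescaling. The part of these shifts in the forkhead values was not tested, other than by leaving out each library.

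The promoters of 7 members, 11 windows in all (250 bases before to 50 after a start, RefSeq, GRCm38.p6), were searched for the forkhead words TGTTTAC and TGTTTGC and their reverse complements, GTAAACA and GCAAACA. A word was found in 2 of these, against 8.48% of 32851 promoters of the same length. The windows are shown because they carry the word, given in capitals on the gene's strand.
Foxa1 (chr12:57546236-57546262, minus strand): atactgctttGTAAACAaagtgagggc
Foxp1 (chr6:99521144-99521170, minus strand): cccaccccagTGTTTGCttggaaattg
The word begins 141 bases before the start in Foxa1 and 167 bases before the start in Foxp1. These are RefSeq starts: no GENCODE M21 transcript of either gene starts at the same base, and both windows lie inside the gene spans given above. A match is a description of the letters, and no factor's binding was measured here.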

How the data were processed

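Sorted β cells of 3 control and 3 βDKO samples were profiled by RNA-seq. The authors deposited TPM, a length-normalised level (unit per the file headers), 1 column per sample, each adding up to 1000000. FastQC, Trimmomatic, HISAT2, HTSeq, DESeq2 and mm10 appear by name per the submitters' processing notes. Roles, versions, annotation and strand setting: not given in the sources used here. Of 24421 rows, 6614 had no signal in any library, and 27 gene names had become dates.

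Genes reaching 1 TPM in 3 or more libraries (12541) entered limma 3.58.1 in R 4.3.3 on log2(TPM + 1), with trend and robust settings, two-sided, as deposited and after division by median-of-ratios size factors (0.643 to 1.38). TPM shares 1 total between all genes, so a fall of abundant transcripts raises the others. Fold changes on this scale understate those of low genes. Whole reads were recovered from the steps of TPM for 16625 of 16625 rows above 0 in at least 2 libraries (within 0.01 of a read, on a scale that may differ between genes), which gave 25388872 to 31282056 reads per library; counting error alone is covered by such reads. Paralog ratios were tested by exact permutation over samples. Gene positions follow GENCODE M21, and the test was tried on simulated data.

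The named genes were the members, up to 6 per list by adjusted p on rescaled values, every tested forkhead gene, and the 3 genes most like the leading member of each subfamily; Pdx1, Isl1, Neurod1, Igf1r, Ep300, Ccng2, Cited2, Fbxo32, Sesn1 and other list members outside that rule were named after their values were seen. The members and lists were chosen with earlier results of these data known. Some genes that these rules name, and some sequences, are not reported here.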

Additional observations from a re-analysis of the deposited data

How the results depend on the processing

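On TPM, 10291 genes changed (9534 higher, 757 lower), and after rescaling 5466 (2811 higher, 2655 lower). Leaving out 1 library gave 8948 to 10105 on TPM and 3473 to 5494 after rescaling, the lowest without βDKO 1 (3473) or βDKO 2 (3551). Averaging βDKO 1 and βDKO 2 gave 3573 after rescaling. Without 1 control the rescaled count was 4670 to 5494, and without βDKO 3 it was 4493. Each of these fits holds fewer samples than the main one, and the cause of the differences was not tested. The replicate block gave 10122 and 4985 genes. Same-numbered libraries had correlations of 0.01, −0.02 and 0.19 in their deviations, and differently numbered ones −0.18 to 0.18. The labels give no pairing, and with so few libraries these values cannot decide whether the numbers pair the samples. The only member lower on TPM, Foxa3, gave a count of 0 in place of 1 with the block, without a filter, with βDKO 1 and βDKO 2 averaged, and in 4 of the 6 fits without a library (range 0 to 1). The calls of Foxa2, Foxo4 and Foxp1 on both scales held under every alternative run, as did those of Foxa3 and Foxp4 after rescaling. So did the calls of Foxo1 and Foxo3 on TPM. These runs included other pseudocounts, filters and limma-voom. Scaling without hormone transcripts and upper-quartile scaling were run only as alternatives to the rescaled values. With them, Foxo1 (limma adjusted p = 0.196 and 0.0777) and Foxo3 (0.723 and 0.392) did not pass. Foxp2 passed wherever it was tested, but it reached the filter through βDKO alone, so its calls carry no weight. Changes that did not pass turned sign: Foxp4 on TPM (leave-one-out range −0.143 to 0.0933; 0.01 without control 3, 0.03 without βDKO 3) and Foxo3 after rescaling (leave-one-out range −0.0221, without control 1, to 0.199). The ratio of Foxp1 to Foxp2 turned from −0.84 to 0.35 with 1 TPM added, because Foxp2 lies near or under 1 TPM. Depth limits Foxa1, with 0 to 4 reads a library.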

Other observations

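Several forkhead genes under the expression filter had recovered reads mostly in controls or mostly in βDKO. None of these entered the main fits, and their values in the fit without a filter are not given here. Those named were chosen after their values were seen, and how many other low genes separate alike was not counted. Foxn1, the factor of thymic epithelium and hair follicles, had 59, 68 and 69 reads in controls (0.541, 0.862 and 0.716 TPM) and no read in any βDKO library. Foxf1, a mesenchymal factor, had 6, 3 and 7 reads in controls and none in βDKO. Foxc1, a factor of mesenchyme and vessels, had 6, 0 and 0 reads in controls and 40, 39 and 16 in βDKO, and Foxr2 had 1, 0 and 0 against 12, 16 and 5. Foxp3, the factor of regulatory T cells, had 0 to 3 reads in every library.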
